A study of Rattus norvegicus with 11 samples.

Results

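Branched-chain amino acid breakdown is followed here through 10 genes: the aminotransferases Bcat1 and Bcat2, the subunits Bckdha, Bckdhb and Dbt and the kinase Bckdk of the branched-chain 2-oxo acid dehydrogenase, and Ivd, Mccc1, Mccc2 and Aldh6a1 further down the pathway. They were chosen by pathway, and selected on the diet difference of these same arrays, in which the log2 signal of Bckdhb stood among those with the largest increase. Members were all probe sets annotated with 1 of these symbols alone, 12 probe sets for 10 genes, out of 15866 probe sets and 10412 genes on the array. The samples were total RNA of rat hippocampus, 5 from rats on a ketogenic diet, rich in fat and poor in carbohydrate and used against epileptic seizures, and 6 from rats on a control diet. Both groups have that tissue in common, and the labels do not state strain, age, sex or duration of the diets. No label says that each sample is a separate animal, so the errors below measure the spread between samples, which may be technical.

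Leucine, isoleucine and valine first lose their amino group to 2-oxoglutarate, which yields glutamate, and in rat brain the cytosolic aminotransferase is found mainly in neurons and the mitochondrial one mainly in astrocytes. The 2-oxo acids then enter the mitochondrial dehydrogenase complex, the committed step, which is switched off when its kinase phosphorylates the E1 subunit. The products of leucine end as acetyl-CoA and acetoacetate, a ketone body, and those of valine as propionyl-CoA.

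All values are log2 probe set signals after quantile normalisation between arrays, and a difference is the ketogenic mean minus the control mean on that scale, with the standard error of a linear model (limma) fitted over 11899 probe sets. Probe sets with a mean over all arrays below 5.17 were not tested, which left 11 of the 12 member probe sets and 9 of the 10 genes, each represented by its probe set with the highest mean. A gene is described as called where the p-value adjusted over all tested probe sets (Benjamini-Hochberg) was below 0.05. Since the members were chosen with this contrast in view, their values are given as a description, with no test of their own.

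Some features of the arrays bear on every value. Deposited signals had medians between 79.9 and 94.2 across the 11 arrays, and on the log2 scale every ketogenic median (6.32 to 6.46) lay below every control median (6.48 to 6.56), a difference of -0.14 (exact permutation test, two-sided, p = 0.00216, the smallest possible). The hybridisation spike-ins, RNA added to every sample, averaged 8.63 on ketogenic and 8.33 on control arrays in log2 signal as deposited. Control probe sets at the 3 prime and 5 prime ends of a transcript give a log2 ratio that is higher in more degraded RNA. For Gapdh it was 0.13 to 0.34 on ketogenic arrays and -0.068 to 0.15 on control arrays, and for actin 0.75 to 0.99 on ketogenic and 0.49 to 0.75 on control arrays. Ketogenic replicate 3 stood apart on the first principal component, at -2.82, where the remaining ketogenic arrays scored 18.6 to 25.7 and control arrays -17.3 to -10.6, and its title carries another suffix (s2b) than those of the other samples (s2). Of the markers that identify hippocampal neurons all 4 with a probe set were tested and 0 called, as were all 4 general neuronal markers. Lower calls on the ketogenic diet were found in 2 of 7 astrocyte, 1 of 5 oligodendrocyte and 2 of 5 microglial markers. Further lower calls were in 3 of 5 choroid plexus, 1 of 7 meningeal, 1 of 5 vascular and 4 of 5 red cell markers. Over all genes 8.03% were called lower and 8.87% higher. Among red cell markers Hbb was at -3.16, Hba-a3 at -1.11 and Bpgm, the 1 called higher, at 0.34. Aif1, a microglial call, had that sign in 1 of its 2 tested probe sets.

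The tested members lay higher on the ketogenic diet in 8 of 9 genes, Bcat1 being the exception, where 4155 of all 8397 genes lay higher. With other scalings the signs of Bcat1, Dbt and Aldh6a1 turned. The median difference of the members was 0.23 on the log2 scale, against -0.0031 over all 8397 genes. Called higher were 3 of the 9, Bckdhb, Mccc1 and Mccc2, and 0 were called lower. Over all genes 16.9% were called in either direction (8.87% higher, 8.03% lower), and over all tested probe sets 16.5% (8.67% higher, 7.86% lower). With members chosen for this contrast, nothing is read from these counts or from the median. The diets did not overlap in 0 of the 9 genes, against 7.31% of all genes and 7.02% of all probe sets. Bckdhb and Bcat2 had control means of 4.56 and 5.10, below the testing level, so that these 2 genes were tested only because of their ketogenic signal. In bulk tissue, fewer cells of a type and less RNA per cell cannot be told apart.

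**Figure D1:**
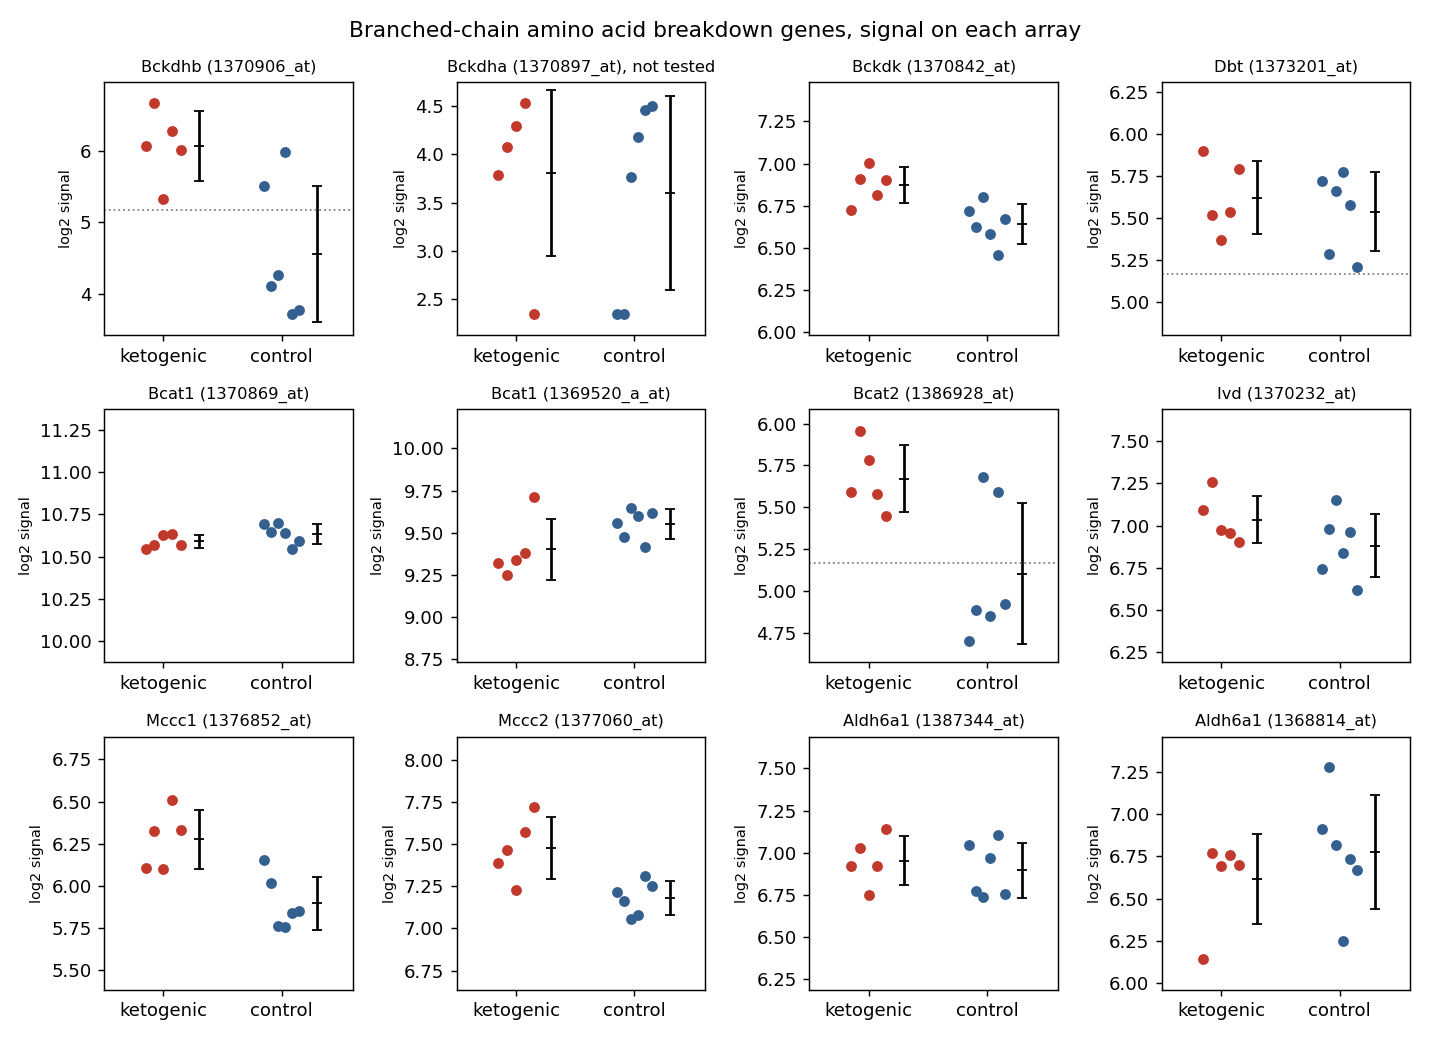
Log2 signal of each of the 12 member probe sets (vertical axis, own range per panel, at least 1.5 log2 units) on 5 ketogenic arrays (red) and 6 control arrays (blue); points are arrays in replicate order, black bars the mean and SD, and the dotted line the level of 5.17 below which a probe set's mean was not tested. Bckdhb and Bcat2 have control arrays on both sides of the line. The Bcat1 panels show narrow groups that overlap, for its second probe set (lower signal) through ketogenic replicate 5 alone.

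Bckdhb, the beta subunit of the E1 part that removes carbon dioxide from the branched-chain 2-oxo acids, differed most among the members. Its signal was 6.08, 6.67, 5.33, 6.29 and 6.01 on ketogenic arrays 1 to 5, against a lowest value of 3.71, a median of 4.19 and a highest value of 5.99 on control arrays. All ketogenic arrays but replicate 3 lay above every control, while control replicates 1 and 4, at 5.51 and 5.99, lay above ketogenic replicate 3. The difference was 1.52 (SE 0.39, 95% interval 0.69 to 2.35), with means of 6.08 ± 0.49 (SD, n = 5) on the ketogenic and 4.56 ± 0.96 (SD, n = 6) on the control diet. On the deposited linear scale the signal averaged 65.9 ± 20.0 on ketogenic arrays and 30.2 ± 22.4 on control arrays. Without ketogenic replicate 3 the difference was 1.69 (SE 0.40). Leaving out ketogenic replicate 1, 2 or 4 brought the overall mean of this probe set below the testing level, and it was not tested there. When probe sets of every level were tested, the same difference of 1.52 was no longer called. With a pseudocount of 16 in place of a floor on low signals the difference was 1.03. No fold is given, since the control signals were low and the size of the difference depends on how low signals are treated.

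Bckdha, the alpha subunit of E1 and the part that the kinase phosphorylates, was not tested because its mean of 3.69 lay far below the testing level. Its values on ketogenic arrays were 3.78, 4.07, 4.30, 4.53 and 2.34. All but replicate 4, just above the highest control, lay within the control range of 2.34 to 4.50, whose median was 3.97. Ketogenic replicate 5 and control replicates 1 and 2 lay at the floor of 2.34, to which low signals were set, so no fold is given. Whether Bckdha moved with Bckdhb was not detectable at these signals.

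Dbt, the E2 core that passes the acyl group to coenzyme A, had signals of 5.90, 5.52, 5.37, 5.54 and 5.79 on ketogenic arrays, against 5.21, 5.62 and 5.77 for the lowest, median and highest control. Its mean of 5.58 was low, at percentile 8.5 of the tested probe sets. The groups lay over each other, with a difference of 0.08 (SE 0.15, 95% interval -0.25 to 0.41) that turned to -0.12 on the values as deposited and to -0.089 when arrays were centred on their 75th percentile. Bckdk, the kinase that switches the complex off, was at 6.72, 6.91, 7.01, 6.81 and 6.90 on ketogenic arrays and at 6.46, 6.65 and 6.80 for the lowest, median and highest control. All ketogenic arrays but replicate 1 exceeded the highest control, replicate 3, although the difference was small, at 0.23 (SE 0.09, 95% interval 0.041 to 0.42), and not called. It was 0.12 on the values as deposited.

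The promoters of the members with the largest differences that have an entry in RefSeq, Bckdhb, Bcat2 and Mccc1, are shown so that the sequences around their starts can be compared. Each window runs from 250 bases before to 50 bases after the annotated start, 5 prime to 3 prime on the strand of the gene, in the assembly GRCr8, at chr8:93725027-93725326 on the plus strand for Bckdhb, chr1:105178889-105179188 on the plus strand for Bcat2 and chr2:120779192-120779491 on the minus strand for Mccc1. Capitals mark matches on either strand to 3 motifs, and overlapping or adjoining matches run together. The core of the GC box was searched as GGCGGG. The box bound by factors of the Klf family was searched as CACCC. The box bound by nuclear factor Y was searched as CCAAT.
Bckdhb: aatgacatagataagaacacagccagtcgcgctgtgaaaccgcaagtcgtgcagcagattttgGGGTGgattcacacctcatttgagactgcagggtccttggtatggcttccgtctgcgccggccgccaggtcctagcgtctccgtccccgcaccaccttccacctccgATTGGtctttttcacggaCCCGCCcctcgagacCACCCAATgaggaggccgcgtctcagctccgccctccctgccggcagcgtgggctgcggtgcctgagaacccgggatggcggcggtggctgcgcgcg
Bcat2: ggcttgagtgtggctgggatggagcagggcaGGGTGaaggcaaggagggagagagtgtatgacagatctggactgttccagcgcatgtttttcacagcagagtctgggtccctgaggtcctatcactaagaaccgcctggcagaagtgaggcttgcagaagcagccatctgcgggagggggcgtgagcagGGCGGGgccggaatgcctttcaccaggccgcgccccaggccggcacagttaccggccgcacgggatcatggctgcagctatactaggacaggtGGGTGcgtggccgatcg
Mccc1: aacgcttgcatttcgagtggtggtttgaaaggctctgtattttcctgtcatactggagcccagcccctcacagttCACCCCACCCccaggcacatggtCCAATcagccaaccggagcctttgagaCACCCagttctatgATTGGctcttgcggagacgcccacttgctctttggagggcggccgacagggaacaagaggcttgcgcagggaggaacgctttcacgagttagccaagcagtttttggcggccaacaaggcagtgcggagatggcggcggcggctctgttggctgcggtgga
CACCC matched 2 times in the window of Bckdhb, 2 times in that of Bcat2 and 3 times in that of Mccc1, a motif that 54.9% of all 33469 promoter windows of this length hold. CCAAT matched 2 times each for Bckdhb and Mccc1 and 0 times for Bcat2, against 37.5% of all windows with a match. GGCGGG matched 1 time each for Bckdhb and Bcat2 and 0 times for Mccc1, against 32.0% of all windows. TATAAA, searched on both strands, was in none of the 3 windows and in 14.2% of all. The same held for TGACG, a core of the cAMP response element, which is in 21.2% of all windows. Guanine and cytosine made up 63.7%, 62.3% and 58.3% of the windows of Bckdhb, Bcat2 and Mccc1, against 52.7% over all windows. Windows of the other members with an entry were much alike. They held 1 to 3 matches to CACCC, 0 to 3 to CCAAT and 0 to 3 to GGCGGG, with 49.3% to 62.7% guanine and cytosine. In all, 8 of the 10 members had an entry, and these matches describe letters, not binding.

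The aminotransferases, which carry out the first step, differed from each other in level and in their spread between samples. By mean signal Bcat1 was at percentile 98.7 of the tested probe sets and Bcat2 at 3.8. Their spread was not compared at equal level. Bcat1, the cytosolic form, was at 10.54, 10.57, 10.63, 10.63 and 10.57 on ketogenic arrays, against 10.55, 10.64 and 10.70 for the lowest, median and highest control, and the ketogenic arrays thus lay within or just under the control range. The difference was -0.046 (SE 0.043, 95% interval -0.14 to 0.045), and it turned to 0.093 on the values as deposited and to 0.13 with centring on the 75th percentile. The other probe set of Bcat1 was at 9.32, 9.25, 9.34, 9.38 and 9.71 on ketogenic arrays and at 9.41, 9.58 and 9.65 for the lowest, median and highest control, with a difference of -0.15 (SE 0.08). Its ketogenic replicate 5 was the highest of all 11 arrays, whereas the other ketogenic arrays lay below every control.

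Bcat2, the mitochondrial form, was at 5.59, 5.96, 5.78, 5.58 and 5.45 on ketogenic arrays, against 4.70, 4.90 and 5.68 for the lowest, median and highest control. Control replicates 3 and 5, at 5.68 and 5.59, lay among the ketogenic arrays and the other 4 controls below all of them. The difference of 0.57 (SE 0.20, 95% interval 0.14 to 0.999) was not called. It was called in 3 of its 26 alternatives, among them those without control replicate 3 (0.68) or control replicate 5 (0.67). Of the 7 astrocyte markers, 2 were called, Aqp4 at -0.33 and Gfap at -0.39, while Slc1a3 was at 0.22, Gja1 at 0.12 and the other 3 between -0.12 and -0.07. Only 1 of the 3 tested probe sets of Slc1a3 had that sign, against 2 of 3 for Gja1 and 3 of 3 for Aqp4. The summed signal of all 7 was 7980 to 9375 on ketogenic and 8551 to 9405 on control arrays, and their part in the Bcat2 difference was not tested.

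Mccc1 and Mccc2 encode the biotin-bearing alpha subunit and the beta subunit of methylcrotonyl-CoA carboxylase, an enzyme of leucine breakdown, and both were higher on the ketogenic diet by a similar amount. Mccc1 was at 6.11, 6.33, 6.10, 6.51 and 6.33 on ketogenic arrays, against 5.76, 5.84 and 6.15 for the lowest, median and highest control. Only control replicate 1, at 6.15, reached into the ketogenic values, where it lay above replicates 1 and 3. The difference was 0.38 (SE 0.12, 95% interval 0.13 to 0.63), or 1.30-fold. Mccc2 was at 7.39, 7.47, 7.23, 7.57 and 7.72 on ketogenic arrays, against 7.06, 7.19 and 7.31 for the lowest, median and highest control, and ketogenic replicate 3 was the 1 array of its diet within the control range. The difference was 0.30 (SE 0.09, 95% interval 0.10 to 0.49), or 1.23-fold. Without ketogenic replicate 3 the differences were 0.42 for Mccc1 and 0.36 for Mccc2. With 1 array left out, each was called in 3 of 11 fits: Mccc1 without control replicate 1 or ketogenic replicate 1 or 3, and Mccc2 without control replicate 5 or 6 or ketogenic replicate 3. Differences over these 11 fits ran from 0.32 to 0.43 for Mccc1 and from 0.23 to 0.36 for Mccc2. On the values as deposited the differences were 0.21 and 0.24 and neither was called.

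Ivd, the dehydrogenase of isovaleryl-CoA that acts just before this carboxylase in leucine breakdown, was at 7.09, 7.26, 6.97, 6.96 and 6.90 on ketogenic arrays, against 6.62, 6.90 and 7.15 for the lowest, median and highest control. The ketogenic arrays all lay at or above the control median, but the difference of 0.15 (SE 0.10, 95% interval -0.067 to 0.38) was small beside the spread. Aldh6a1, which converts methylmalonate semialdehyde at the end of valine breakdown, was at 6.92, 7.03, 6.75, 6.92 and 7.14 on ketogenic arrays and at 6.74, 6.87 and 7.10 for the lowest, median and highest control. Its difference was 0.055 (SE 0.099, 95% interval -0.16 to 0.27), -0.035 on the values as deposited. The other probe set of Aldh6a1 had the opposite sign, -0.16 (SE 0.16), with ketogenic replicate 1 at 6.14 below all other arrays.

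**Figure D2:**
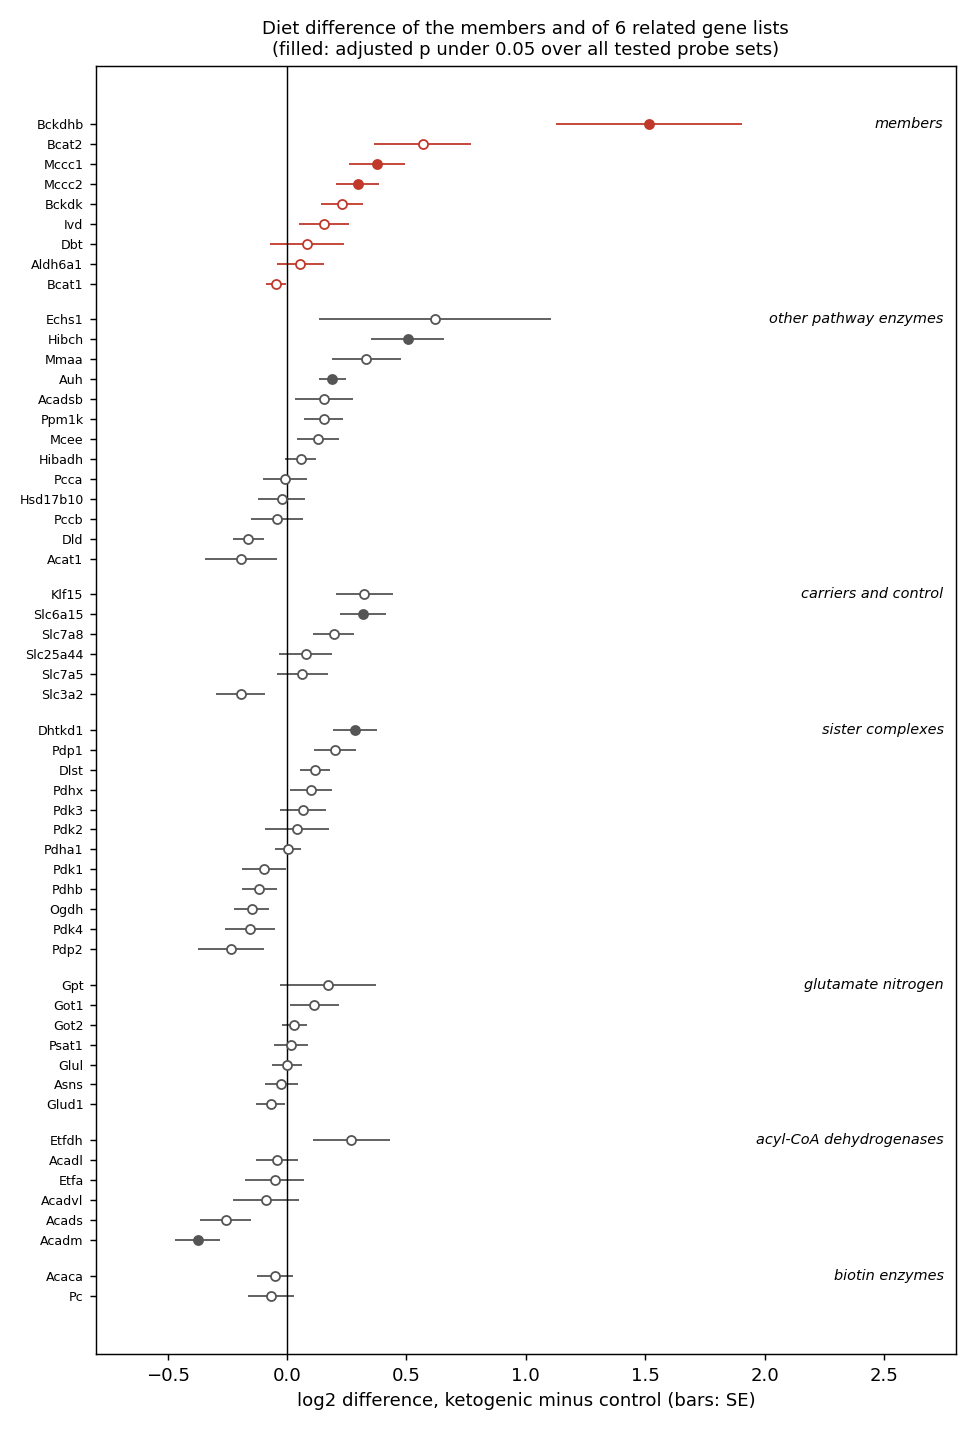
Log2 difference, ketogenic minus control (horizontal axis, bars are standard errors), for the 9 tested members (red) and the 46 tested genes of 6 related lists (grey), with filled points for adjusted p below 0.05 over all tested probe sets. Bckdhb at 1.52 lies far to the right of all others, and filled points in the grey lists are few, 4 higher and 1 lower.

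Within a diet, pairs of members did not vary in a common direction from array to array. Over the 36 pairs of tested members, Pearson correlations of deviations from the diet means over 11 arrays ran from -0.45 to 0.73 with a median of -0.010, and 19 of the 36 were negative. The pair with the highest value was Bcat2 with Ivd, and Bckdhb with Bcat2 was among the lowest, at -0.42. These are descriptions, and the points share array and normalisation. In 5 of the 9 members, Bckdhb, Dbt, Mccc1, Mccc2 and Aldh6a1, ketogenic replicate 3 had the lowest ketogenic value. The share of all genes that were lowest on that array was not counted, so nothing is read from this count. The genes whose deviations were most like those of Bckdhb among all genes were Ehbp1l1 (r = 0.91), Psmf1 (r = 0.91), Stard3 (r = 0.90), Vps37b (r = 0.88) and Lgmn (r = 0.87), over the same 11 arrays. They were picked as the highest over all tested genes on few arrays, and Bckdhb was at percentile 1.5 of the tested probe sets by mean signal. Nothing is read from this likeness.

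Beyond the members, 60 genes around the pathway were listed with earlier results of these arrays known, and 48 had a probe set and 46 were tested. Of these 46, 4 rose and 1 fell, or 10.9%, below the 16.9% called over all genes, and their median difference was 0.024. Among 13 other enzymes of the pathway 2 rose and 0 fell. Auh, the hydratase that acts on the product of methylcrotonyl-CoA carboxylase, was at 9.18, 9.25, 9.09, 9.21 and 9.14 on ketogenic arrays, against 8.91, 8.97 and 9.13 for the lowest, median and highest control. Control replicate 6 alone reached the ketogenic range, and Auh rose by 0.19 (SE 0.06, limma adjusted p = 0.0369). Hibch, which releases 3-hydroxyisobutyrate in valine breakdown, was at 6.37, 6.94, 6.12, 6.71 and 6.79 on ketogenic arrays, against 5.88, 5.98 and 6.44 for the lowest, median and highest control. It rose by 0.51 (SE 0.15, limma adjusted p = 0.0375), and control replicates 1 and 3, at 6.27 and 6.44, lay above ketogenic replicate 3, control replicate 3 also above ketogenic replicate 1.

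Dld, the E3 subunit that this complex has in common with pyruvate and 2-oxoglutarate dehydrogenase, was at 8.53 ± 0.12 (SD, n = 5) on the ketogenic and 8.69 ± 0.05 (SD, n = 6) on the control diet, a difference of -0.16 (SE 0.06, limma adjusted p = 0.0961). Ppm1k, Pcca and Pccb were added for their roles, after their values were seen. Ppm1k, the phosphatase that switches the complex on again, differed by 0.15 (SE 0.08, limma adjusted p = 0.206). Pcca and Pccb, the subunits of propionyl-CoA carboxylase, a biotin enzyme built like that of Mccc1 and Mccc2, differed by -0.0088 (SE 0.090) and -0.043 (SE 0.11).

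Of 6 tested carriers and regulators 1 rose and 0 fell. Slc6a15, a sodium-dependent carrier of neurons that prefers branched-chain amino acids, was at 8.44, 8.57, 8.06, 8.51 and 8.27 on ketogenic arrays, against 7.84, 8.07 and 8.25 for the lowest, median and highest control, and it rose by 0.32 (SE 0.10, limma adjusted p = 0.0399). Ketogenic replicate 3 was the 1 ketogenic array below the highest control. Klf15, a transcription factor that drives branched-chain breakdown in mouse muscle, differed by 0.32 (SE 0.12, limma adjusted p = 0.0777). It was called in 6 of its 27 alternatives, among them those without ketogenic replicate 3 (0.40) and without control replicate 6 (0.39). Over these alternatives its difference ran from 0.074 to 0.62 and the limma adjusted p from 0.0190 to 0.984. Slc7a8, a subunit of a carrier of large neutral amino acids, differed by 0.19 (SE 0.09, limma adjusted p = 0.128).

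The sister dehydrogenase complexes, which have the same architecture, had 1 of 12 tested genes higher and 0 lower. Dhtkd1, an E1 subunit for 2-oxoadipate from lysine, was at 6.75, 6.65, 6.53, 6.72 and 6.78 on ketogenic arrays, against 6.19, 6.40 and 6.58 for the lowest, median and highest control, and it rose by 0.29 (SE 0.09, limma adjusted p = 0.0493). Pdhb and Pdha1, likewise added after their values were seen, are the subunits of pyruvate dehydrogenase that correspond to Bckdhb and Bckdha. Pdhb differed by -0.12 (SE 0.08, limma adjusted p = 0.289), and Pdha1 by 0.0035 (SE 0.055). Pdp1, a phosphatase of pyruvate dehydrogenase, differed by 0.20 (SE 0.09, limma adjusted p = 0.123), and Ogdh, an E1 subunit of the citrate cycle, by -0.15 (SE 0.07, limma adjusted p = 0.175), which was called without ketogenic replicate 3 (-0.21).

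Among 6 tested relatives of Ivd and their electron carriers 0 rose and 1 fell. Acadm, the medium-chain acyl-CoA dehydrogenase of fatty acid oxidation, was at 7.71, 7.53, 7.55, 7.26 and 7.65 on ketogenic arrays, against 7.67, 7.96 and 8.07 for the lowest, median and highest control, and it fell by 0.38 on the log2 scale (SE 0.09, limma adjusted p = 0.0186). Control replicate 2 was the lowest control and lay below ketogenic replicate 1. Acads, the short-chain enzyme, differed by -0.26 (SE 0.11, limma adjusted p = 0.110) and Etfdh, which hands the electrons of these enzymes to the respiratory chain, by 0.27 (SE 0.16, limma adjusted p = 0.257). The enzymes that handle the amino group of glutamate had 0 calls of 7, with Glud1 at -0.069 (SE 0.062), Got1 at 0.11 (SE 0.10) and Gpt at 0.17 (SE 0.20) nearest to one. The other biotin enzymes had 0 calls of 2, Pc at -0.067 (SE 0.097) and Acaca at -0.051 (SE 0.076), although another probe set of Acaca was called lower, at -0.31 (limma adjusted p = 0.0437).

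Each of the 5 calls was lost in at least 1 fit with 1 array left out, Acadm in 1 only. Acadm was called in 10 of 11 such fits, the exception being without ketogenic replicate 4 (-0.30, limma adjusted p = 0.0525), Hibch in 4 (all but those without control replicate 2, 4, 5 or 6 or ketogenic replicate 2, 4 or 5), Slc6a15 in 3 (without control replicate 1 or 6 or ketogenic replicate 3), and Auh and Dhtkd1 in 2 each (without control replicate 6 or ketogenic replicate 3). Differences over these fits ran from 0.41 to 0.62 for Hibch, from 0.27 to 0.40 for Slc6a15, from 0.17 to 0.22 for Auh and from 0.24 to 0.32 for Dhtkd1. Of the related genes (46 or 47 tested in each fit), 7 were called without ketogenic replicate 3 or without control replicate 6, 4 without control replicate 1, 3 without control replicate 3, 2 without control replicate 5 or ketogenic replicate 1, 1 without control replicate 2 or 4 or ketogenic replicate 2 or 5, and 0 without ketogenic replicate 4.

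Measures of RNA quality moved with the diet too. With both control ratios, of Gapdh and of actin, in the model as covariates, the difference was 0.84 (SE 0.74) for Bckdhb, 0.76 (SE 0.38) for Bcat2, 0.36 (SE 0.23) for Mccc1, 0.20 (SE 0.17) for Mccc2 and 0.22 (SE 0.17) for Bckdk, and 0 members and 0 of the 46 related genes were called, where 6 probe sets were called over the whole array. Slc6a15 was at -0.047 (SE 0.15) in that fit. Within the diets, the correlation of member deviations with those of the Gapdh ratio ran from -0.30 to 0.28 and with those of the actin ratio from -0.38 to 0.60 over 11 arrays, at 0.28 and 0.22 for Bckdhb. The actin ratios of the diets did not overlap, so that the parts of diet and of this ratio in the differences cannot be told apart.

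**Figure D3:**
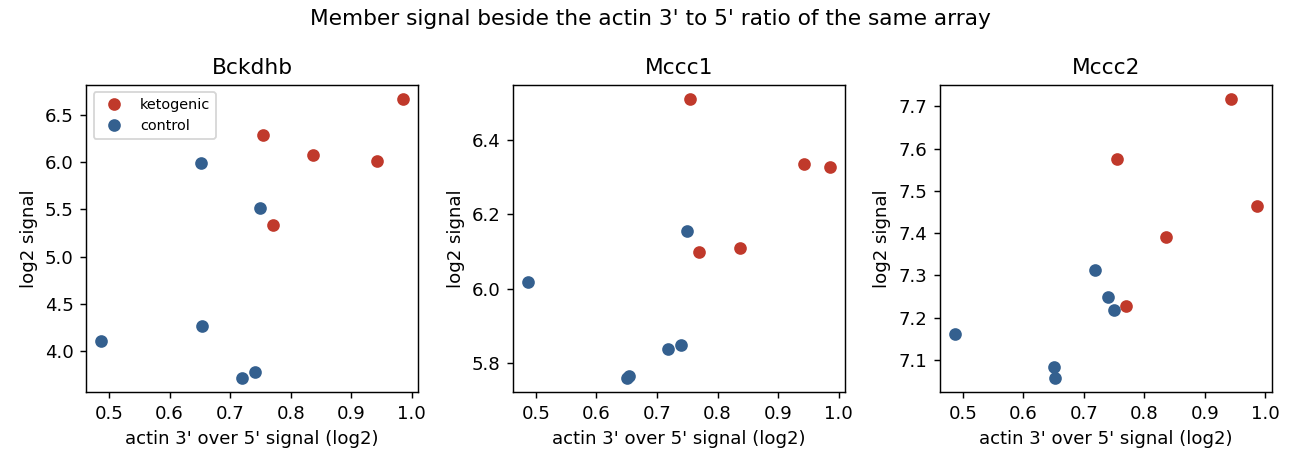
Log2 signal of Bckdhb, Mccc1 and Mccc2 (vertical axes) against the log2 ratio of the actin 3 prime to the 5 prime control probe set on the same array (horizontal axis), for 5 ketogenic (red) and 6 control (blue) arrays. Ketogenic arrays lie at ratios of 0.75 to 0.99 and control arrays at 0.49 to 0.75.

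**Figure D4:**
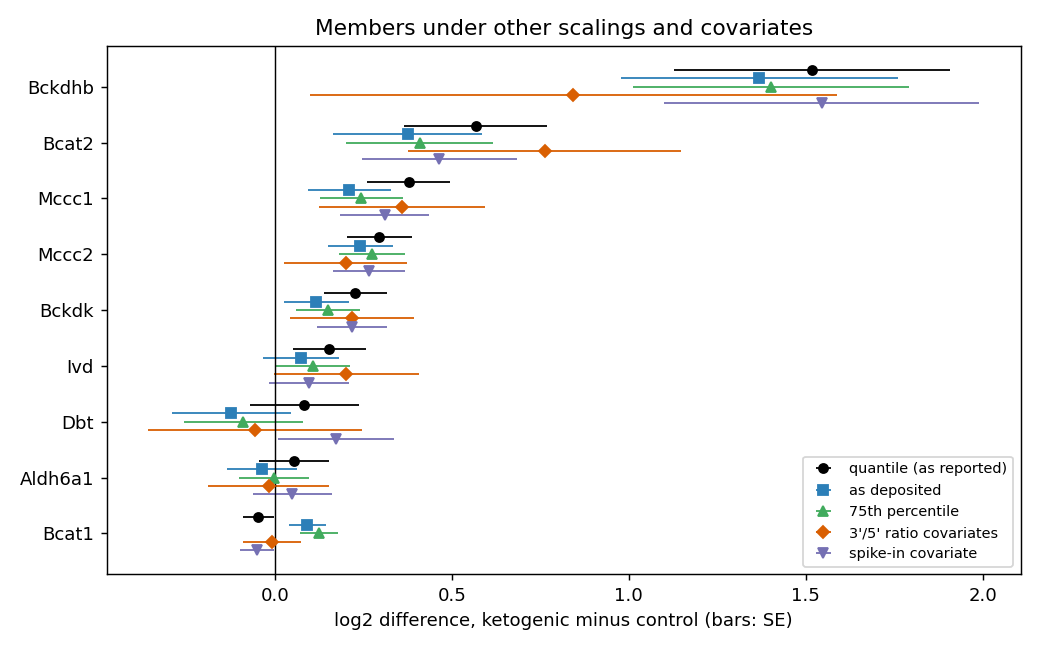
Log2 difference, ketogenic minus control, with its standard error (horizontal axis) for the 9 tested members as reported, under 2 other scalings and with covariates, either the control ratios of Gapdh and actin or the mean level of 45 spike-in probe sets. Those 45 include the 18 hybridisation spike-in probe sets, and the others had lower signal. Bckdhb, Bcat2, Mccc1, Mccc2, Bckdk and Ivd stay positive under all 5 settings, while Dbt, Aldh6a1 and Bcat1 change sign between scalings.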

How the data were processed

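Diet and replicate number of the 11 hippocampal RNA samples, 1 array each, came from their titles. The authors deposited 1 linear intensity per probe set and array, for 15923 probe sets, and no source used here describes the steps before that. Trimmed means (2% at each end) of the deposited intensities lay between 150.02 and 150.03 on every array, as a global scaling leaves them. For arrays, their number limits the precision.

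The 57 control probe sets were left out. Array medians spanned 0.24 on the log2 scale, above a limit of 0.1, so signals were quantile-normalised, set to at least the 5th percentile (5.07) and log2-transformed. Probe sets in the bottom 25% by mean were not tested. The diet difference came from limma 3.58.1 under R 4.3.3 (eBayes with a variance trend, two-sided, Benjamini-Hochberg over 11899 probe sets), and the code was tested on simulated data. Each gene was represented by whichever tested probe set was brightest on average. Of the annotated probe sets 12789 had 1 symbol, 312 had several and 2771 of the array were unnamed here; symbols were updated with RefSeq gene identifiers, and promoters came from RefSeq (GRCr8).

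Members, lists and settings were chosen with earlier results of these data known. All members were described, with the called genes and the 3 smallest p-values of each list. Replicate numbers were not taken as pairs: same-numbered arrays of the diets correlated at 0.0090 to 0.077 in their deviations. Array measures were compared between diets with exact permutation tests (6 measures, adjusted). Alternatives were other scalings, floors, filters, variance models, thresholds, covariates, the replicate block and leaving out each array, and a covariate of hybridisation spike-ins alone was added after the data were seen.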

Additional observations from a re-analysis of the deposited data

Results flagged for a closer look

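In 6 of 70 groups of values 1 array lay far from the rest of its diet, where chance gives about 1 in 20, or 3.5. The second probe set of Bcat1 had ketogenic replicate 5 at 9.71, against 9.25 to 9.38 on the other ketogenic arrays, and the second probe set of Aldh6a1 had ketogenic replicate 1 at 6.14, against 6.69 to 6.77. Got1, which transfers amino groups between aspartate and glutamate, had ketogenic replicate 3 at 9.76, against 9.20 to 9.34, and Gpt, the alanine aminotransferase, had ketogenic replicate 1 at 5.13, against 6.14 to 6.43. Ketogenic replicate 3 lay at -2.82 on the first principal component, against 18.6 to 25.7, and at 8.91 in the mean log2 level of the hybridisation spike-ins, against 8.51 to 8.62.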

How the results depend on the processing

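The members' 3 calls became 1 on the values as deposited, 0 without a filter on low probe sets, 1 with the lowest 50% not tested (5 members left), 5 at a threshold of 0.1, 0 with the 3 prime to 5 prime covariates and 0 with the spike-in covariate. The 5 calls among the related genes became 3 without a variance trend, 0 with either of these covariates and 2 with the hybridisation spike-ins alone. The calls over all probe sets, 1967, became 2812 on the values as deposited (1076 higher, 1736 lower), where the members' calls became fewer. They became 2728 with centring on the 75th percentile and 3133 with array weights. At a threshold of 0.1 they were 3071, with the 3 prime to 5 prime ratios 6 and with the spike-in level 764. Totals without the filter and with the lowest 50% not tested are not given here, so nothing is read from those member counts. With 1 array left out the counts ran from 0 to 3 members, from 0 to 7 related genes and from 798 to 3161 probe sets (lowest without ketogenic replicate 4, highest without ketogenic replicate 3). Of the named genes Slc6a15 was reversed by the 3 prime to 5 prime covariates, at -0.047. As deposited 38.3% of all calls were higher, centred on the 75th percentile 49.7% and as reported 52.5%. With the replicate number as a block, which nothing in the labels says to be a pairing, 2 members, 6 related genes and 1815 probe sets were called, and same-numbered arrays correlated best with their own number in 2 of 5 pairs. The causes of these changes were not tested. The spike-in covariate is the mean log2 level of 45 probe sets, 4.69 on ketogenic and 4.83 on control arrays as deposited. Among them the 18 hybridisation spike-in probe sets averaged 8.63 and 8.33. The others, the greater part of the 45, therefore averaged far below 4.69 and 4.83, at low signal. The diet difference of the array measures was 0.20 for the Gapdh ratio (exact permutation test, p = 0.00649, adjusted 0.00779) and 0.19 for the actin ratio (exact permutation p = 0.00216, the smallest possible, adjusted 0.00433), 0.30 for the hybridisation spike-ins (exact permutation p = 0.00649, adjusted 0.00779) and -0.14 for the mean level of all spike-ins (exact permutation p = 0.219), each with the same sign after quantile normalisation. Low signal limits Bckdhb, Bcat2, Dbt and Bckdha.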
